A study of Mus musculus with 6 samples.

Results

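Transcripts of the cohesin ring and its closest partners were followed in blood stem and progenitor cells with and without Asxl2. The 9 genes were taken by symbol from the 24063 genes listed in the counts: the core subunits Smc1a, Smc3 and Rad21, the alternative subunits Stag1 and Stag2, the regulatory subunits Pds5a and Pds5b, the loader Nipbl, and Ctcf. They were chosen by name. Cohesin is a ring-shaped complex that encloses DNA, holds sister chromatids together until they separate in mitosis, and extrudes chromatin loops in interphase. Nipbl, with its partner Mau2, loads the ring and drives extrusion, the Pds5 proteins and Wapl regulate its release, and Ctcf, a zinc-finger protein bound to DNA, is where many loops stop. Cohesin genes are recurrently mutated in myeloid leukaemia, including leukaemia with the AML1-ETO fusion. ASXL2, a chromatin regulator of the Polycomb-related Asxl family, is also mutated in leukaemia with that fusion.

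LSK cells, the Lineage- Sca-1+ c-Kit+ fraction of bone marrow that contains haematopoietic stem cells and early progenitors, were profiled by RNA-seq in 3 Asxl2-/- and 3 wild-type libraries. All libraries came from C57BL/6 bone marrow, and the titles of both groups carry MX1CRE, so the Cre transgene and the pIpC given to induce it were common to Asxl2-/- and control samples. In the study's model, loxP sites flank exon 11 of Asxl2 and the recombinase is under the interferon-inducible Mx1 promoter, which is active in other tissues as well as in blood cells. The labels give neither age nor sex, and the study's methods call the 3 libraries of each group biological replicates without saying whether each came from a separate mouse, so the p-values below measure the spread between these libraries.

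Counts of Asxl2-/- replicates 1 and 3 and control replicate 2 were given per transcript (gene-count files), and those of Asxl2-/- replicate 2 and control replicates 1 and 3 per exon (exon-count files), where a spliced read can count more than once. The totals were 25528540 to 29136012 counts in the gene-count files and 53147729 to 55032075 in the exon-count files. Levels are therefore compared between genotypes within each kind of file, and the tests below include the kind of file as a covariate, or permute within it, unless stated otherwise. The counts of the 9 genes ran from 3363 for Stag1 in control replicate 2 to 31231 for Smc1a in Asxl2-/- replicate 2. Asxl2 itself had 125 and 149 CPM (counts scaled to the normalised library size) in Asxl2-/- replicates 1 and 3 against 123 in control replicate 2, and 90.3 in Asxl2-/- replicate 2 against 85.1 and 86.6 in control replicates 1 and 3. Its summed level was thus lower in no Asxl2-/- library (log2 fold change 0.11 ± 0.0954 SE, adjusted p = 0.469). Exon 11, at chr12:3496225-3496936 on mm10, held 0.583% of the Asxl2 exon counts in Asxl2-/- replicate 2 against 10.3% and 12.0% in control replicates 1 and 3. The gene-count files do not resolve exons, so that check was not possible for the other 2 Asxl2-/- libraries.

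The sort and the sex-linked genes were checked as well. Kit, which encodes c-Kit, was at 280 to 431 CPM and Ly6a, which encodes Sca-1, at 40.5 to 260 CPM, so neither defining marker was absent from any library. These ranges, and those of all summed levels below, pool both kinds of file. Ly6a was at 52.6 and 57.6 CPM in Asxl2-/- against 260 CPM in control gene-count files. In exon-count files it was at 69.1 CPM, between the controls at 40.5 and 148 CPM (log2 fold change -1.34, adjusted p = 0.187 by edgeR). The summed level of 6 B-lymphoid markers was 130 to 132 CPM in Asxl2-/- and 34.5 to 50.2 CPM in control libraries, and 5 of the 6 were called higher. Summed megakaryocyte markers were at 311 to 816 CPM against 156 to 349 CPM (4 of 6 called higher), and erythroid markers at 439 to 666 CPM against 902 to 1340 CPM (0 of 6 called). All 6 erythroid markers were nevertheless lower at an unadjusted p below 0.05 by edgeR, with a median log2 fold change of -1.1. Over all tested genes, 27.7% passed that unadjusted level in either direction and 2.34% were called. Myeloid markers overlapped (2440 to 6540 against 2520 to 7780 CPM, 0 of 5 called). T and NK cell markers were at 8.64 to 10.7 against 10.7 to 20.5 CPM (0 of 5 called), and endothelial markers at 102 to 142 against 79.9 to 103 CPM (0 of 6 called). None of these markers was at or below 3 counts in every library, and their part in the results below was not tested. Xist, transcribed from the inactive X chromosome, had 49540 to 66689 counts in Asxl2-/- and 590 to 3194 in control libraries. Transcripts of Uty, Kdm5d, Eif2s3y and Ddx3y, all 4 on the Y chromosome, had 0 to 2 counts in every Asxl2-/- library and 1026 to 4807 in the controls. Genotype and sex therefore cannot be told apart in this series, which bears on the X-linked Smc1a and Stag2 in particular. In such bulk samples, a smaller number of cells of a type and less RNA per cell cannot be told apart either.

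Short stretches of promoter are shown first, because several of these genes share a word of bases there that the choice of genes did not use. RefSeq promoter windows of 300 bases (250 before and 50 after the annotated start, GRCm38.p6) were held for 6 of the 9 genes: Smc1a, Smc3, Stag1, Pds5a, Pds5b and Ctcf. The word GCCATTTT, whose letters hold the core recognised by the zinc-finger factor Yy1, was searched on both strands (AAAATGGC on the reverse) after the windows had been read. It was found in 4 of the 6, in capitals below, each stretch printed on the plus strand, 5′ to 3′.

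Ctcf, chr8:105636537-105636566: accgcgccgccGCCATTTTgtgtccgagcc

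Smc3, chr19:53600385-53600414: ccgcggccgccGCCATTTTgtttggccaca

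Pds5b, chr5:150673779-150673808: ctgctcttggcGCCATTTTgaagcggagag

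Stag1, chr9:100643235-100643264: gagaagctctaAAAATGGCgggcggcaacc

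All 4 genes are transcribed from the plus strand. In Ctcf and Smc3 the word began at positions 11 and 1, counting the annotated start as 1. In Pds5b it began at position -37 and in Stag1, on the reverse strand, at -202 from an annotated start upstream of the transcript counted here (100643623). The Smc1a and Pds5a windows did not hold these letters. The Pds5a window (chr5:65698187-65698486, minus strand) lay wholly upstream of the transcript counted here, whose 5′ end is at 65697856. Of all 32851 RefSeq windows of this length, 1.54% held the word, and so did 2.25% of the 10412 tested genes with a window. The GC content of the 6 windows ranged from 58.3% in Smc1a to 80.3% in Pds5a, against a median of 52.7% over all windows. A match describes letters only, and since the word was picked after reading these windows no test was applied to it.

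None of the 9 genes passed the threshold between Asxl2-/- and control LSK cells. All 9 passed the filter on low counts and were tested by the quasi-likelihood test of edgeR, in which 331 of 14145 genes had a Benjamini-Hochberg adjusted p below 0.05 (2.34%, with 288 higher and 43 lower). Leaving out 1 library moved the count of 331 to between 9 (without control replicate 3) and 1312 (without control replicate 1), and by over 1.5 times for each of the other libraries, while the count among the 9 genes was 0 in each case. At an unadjusted p below 0.05, 1 of the 9 (Stag1) passed, against 27.7% of all tested genes. Without regard to sign, the log2 fold changes of the 9 had a median of 0.06, against 0.24 over all tested genes, and each of the 9 lay below that all-gene median. The same median was also taken over the 1714 tested genes at least as abundant as the lowest of the 9 (mean of 140 CPM or more), where it was 0.18 and 0.758% were called. Stag1 (0.20), Stag2 (0.23) and Nipbl (0.22) lay above this median of 0.18, and the remaining genes lay below it. The 95% intervals of the 9 log2 fold changes reached no farther from 0 than 0.54, the upper bound for Nipbl.

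**Figure D1:**
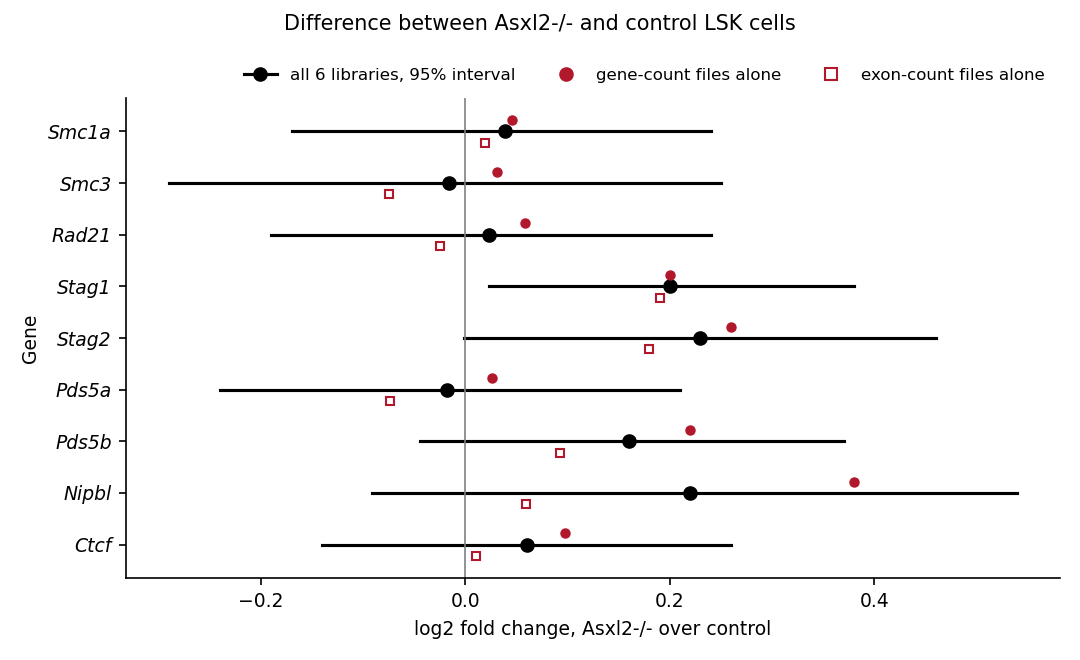
Log2 fold change (horizontal axis) of each of the 9 genes (vertical axis) between Asxl2-/- and control LSK cells. Black points and lines give the estimate from all 6 libraries and its 95% interval, filled red circles the gene-count files alone and open red squares the exon-count files alone (3 libraries each, no test). Stag1 alone has an interval above 0 (0.023 to 0.38), and for Smc1a, Stag1, Stag2, Pds5b, Nipbl and Ctcf both red symbols lie above 0.

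Transcripts of the 3 subunits that close the ring differed little between genotypes. Smc1a (NM_019710, chrX:152016428-152061973, 25 exons), which encodes an ATPase arm of the ring, in Asxl2-/- replicates 1 and 3 was at 463 and 488 CPM, against 455 CPM in control replicate 2. In the exon-count files it was at 587 CPM in Asxl2-/- replicate 2 against 560 and 602 CPM in control replicates 1 and 3. The knockout was thus slightly above the control in gene-count files and between the controls in exon-count files. The fold was 1.03 (95% interval 0.891 to 1.18, adjusted p = 0.797).

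Smc3 (NM_007790, chr19:53600396-53645831, 29 exons), the other ATPase arm, was at 283 and 329 CPM against 296 CPM in gene-count files and at 374 CPM against 367 and 424 CPM in exon-count files. Asxl2-/- and control libraries overlapped in both kinds of file, with a fold of 0.989 (0.821 to 1.19, adjusted p = 0.941). Rad21 (NM_009009, chr15:51962604-51991760, 14 exons), the kleisin that bridges both arms and is cut by separase, was at 374 and 380 CPM against 357 CPM, and at 359 CPM against 349 and 385 CPM. Its groups overlapped in the exon-count files, and the fold was 1.02 (0.877 to 1.18, adjusted p = 0.892). Over these core subunits the fold intervals together spanned 0.821 to 1.19.

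Stag1 and Stag2 encode alternative subunits that bind Rad21, of which each ring carries either kind. Stag1 (NM_009282, chr9:100643623-100958544, 34 exons) was at 136 CPM in both Asxl2-/- gene-count libraries against 117 CPM in control replicate 2, and at 162 CPM in Asxl2-/- replicate 2 against 141 and 146 CPM in control replicates 1 and 3. Asxl2-/- libraries were higher without overlap in both kinds of file. With the kind of file removed, log2 CPM was 7.22 ± 0.012 in Asxl2-/- and 7.02 ± 0.029 in control libraries (SD, n = 3 each). The log2 fold change of 0.20 ± 0.0734 (SE; fold 1.15, 1.02 to 1.30) gave the smallest p-value of the 9 genes, 0.0327 before and 0.149 after adjustment over all tested genes by edgeR.

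Stag2 (NM_001077712, chrX:42149412-42277186, 33 exons), recurrently mutated in human cancers, was at 335 and 358 CPM against 285 CPM in gene-count files and at 384 CPM against 320 and 362 CPM in exon-count files. Again every Asxl2-/- library exceeded every control of its kind. The log2 fold change was 0.23 ± 0.0944 (SE; fold 1.17, 0.999 to 1.37, adjusted p = 0.183). As Stag2 lies on the X chromosome, it was set beside X-linked genes known to escape inactivation. Kdm6a, a histone demethylase, was called higher in Asxl2-/- (log2 fold change 0.83, adjusted p = 0.0178, but 0.0553, 0.101 and 0.0798 without control replicate 2, control replicate 3 and Asxl2-/- replicate 1, respectively). Eif2s3x and Kdm5c had log2 fold changes of 0.31 and 0.23 that did not pass (adjusted p = 0.112 and 0.136), and Ddx3x had -0.12 (adjusted p = 0.674). The median log2 fold change of the 474 tested X-linked genes was 0.064, and that of 13666 autosomal genes -0.0018. Stag2 lay above the X-linked median, Smc1a (0.04) below it, and the autosomal Stag1 and Nipbl at about the same fold change as Stag2. The part of sex in the Stag2 value was not tested and cannot be told apart from that of genotype.

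Pds5a and Pds5b encode alternative partners of the ring that act both in its release and in its maintenance. Pds5a (NM_001081321, chr5:65615260-65697856, 32 exons) was at 287 and 300 CPM against 284 CPM in gene-count files and at 366 CPM against 364 and 411 CPM in exon-count files, so the groups overlapped in the latter. Its fold was 0.987 (0.844 to 1.16, adjusted p = 0.92). Pds5b (NM_175310, chr5:150673827-150810669, 35 exons) was at 169 and 177 CPM against 146 CPM and at 180 CPM against 163 and 176 CPM. The Asxl2-/- libraries were the higher ones in both kinds of file. The log2 fold change was 0.16 ± 0.0858 (SE; fold 1.12, 0.97 to 1.30, adjusted p = 0.26), and 0.09 without control replicate 2.

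Nipbl (NM_201232, chr15:8289824-8444463, 46 exons) was at 205 and 254 CPM in Asxl2-/- replicates 1 and 3 against 174 CPM in control replicate 2, and at 203 CPM in Asxl2-/- replicate 2 against 200 and 190 CPM in control replicates 1 and 3. The groups did not overlap within either kind of file, and the widest gap was that between Asxl2-/- replicate 3 and control replicate 2. Its log2 fold change, 0.22 ± 0.13 (SE; fold 1.17, 0.939 to 1.45, adjusted p = 0.3), was 0.10 without the former, 0.06 without the latter and 0.40 without Asxl2-/- replicate 2. The log2 CPM of Nipbl had the widest spread of the 9 among Asxl2-/- libraries, 7.78 ± 0.18 against 7.56 ± 0.1 in controls (SD, n = 3 each).

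Ctcf (NM_181322, chr8:105636538-105682922, 12 exons) was at 271 and 283 CPM against 256 CPM in gene-count files. In exon-count files it was at 249 CPM, between the controls at 240 and 256 CPM. The fold was 1.04 (0.906 to 1.20, adjusted p = 0.671).

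Across the 9 genes, 4 (Stag1, Stag2, Pds5b and Nipbl) were higher in Asxl2-/- without overlap in both kinds of file, and 0 were lower in that sense. Of all tested genes, 25.4% were higher by this description, and the count of 4 is read only against that share. The share of all tested genes that were lower was not counted, so the count of 0 is not read as a result. The same 4 had the longest transcripts of the 9, with 5966 to 10762 bases of exon against 3605 to 4851 bases in the other 5. Their log2 fold changes were 0.16 to 0.23, against -0.02 to 0.06 in the other 5. Over all 1301 tested genes with transcripts as long as those of the 4, the median log2 fold change was 0.09, and over the 2255 tested genes as long as the other 5 it was 0.05. After the trend of each library with transcript length was removed, the values were 0.06 to 0.13 for the 4 and -0.10 to 0.02 for the other 5, and the smallest adjusted p among the 9 was 0.38. The part of length in the difference between the 4 and the other 5 was not tested.

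**Figure D2:**
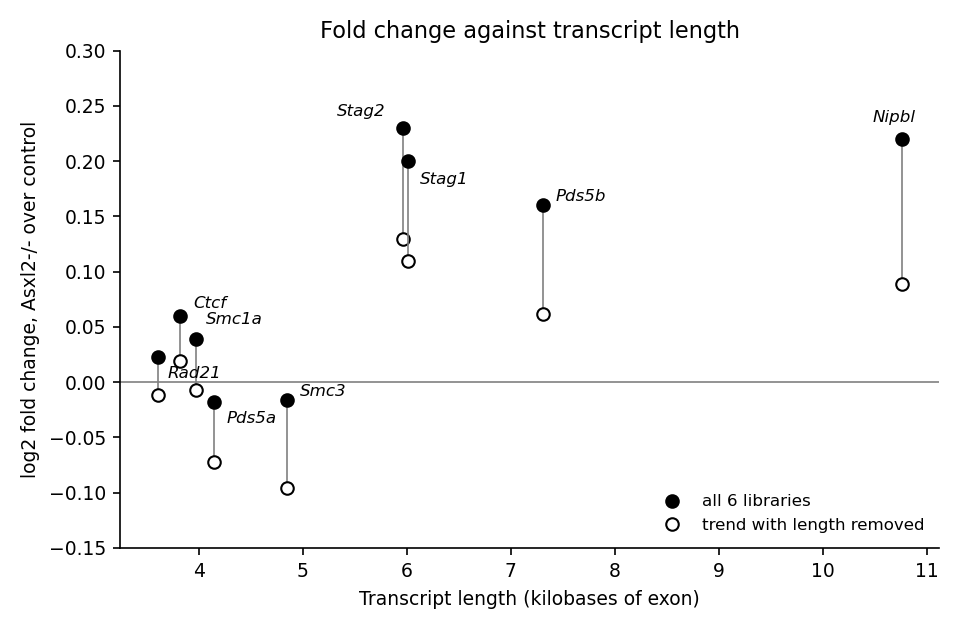
Log2 fold change between Asxl2-/- and control cells (vertical axis) against the exonic length of the transcript in kilobases (horizontal axis) for the 9 genes. Filled points are estimates from all 6 libraries and open points those after the trend of each library with transcript length was removed. The 4 longest transcripts lie highest in both, between 0.16 and 0.23 and then between 0.06 and 0.13.

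To compare the genes with each other, levels were divided by transcript length. On this scale (CPM per kilobase) Smc1a was the most abundant, at 115 to 123 in gene-count and 141 to 152 in exon-count files, and Nipbl the least, at 16.2 to 23.6 and 17.7 to 18.8. The order of group means on the log2 scale was Smc1a (7.06 ± 0.041 in Asxl2-/-, 7.02 ± 0.054 in control), Rad21 (6.68 ± 0.032, 6.66 ± 0.077), Pds5a (6.31 ± 0.047, 6.33 ± 0.094), Smc3 (6.13 ± 0.11, 6.15 ± 0.11) and Ctcf (6.11 ± 0.046, 6.05 ± 0.057). It continued with Stag2 (5.94 ± 0.056, 5.71 ± 0.095), Stag1 (4.63 ± 0.012, 4.43 ± 0.029), Pds5b (4.61 ± 0.055, 4.44 ± 0.07) and Nipbl (4.35 ± 0.18, 4.13 ± 0.1; all SD, n = 3 each). Most neighbours in this order were ranked alike in 6 of 6 libraries. The exceptions were Smc3 over Ctcf and Stag1 over Pds5b, each seen in 3 of 6 libraries and in 0 of the 3 gene-count files, so that neither pair could be ordered independently of the way of counting. These ratios of count to length depend on splice density too, since the ratio of exon-file to gene-file counts ran from 1.65 for Ctcf to 2.34 for Pds5a.

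**Figure D3:**
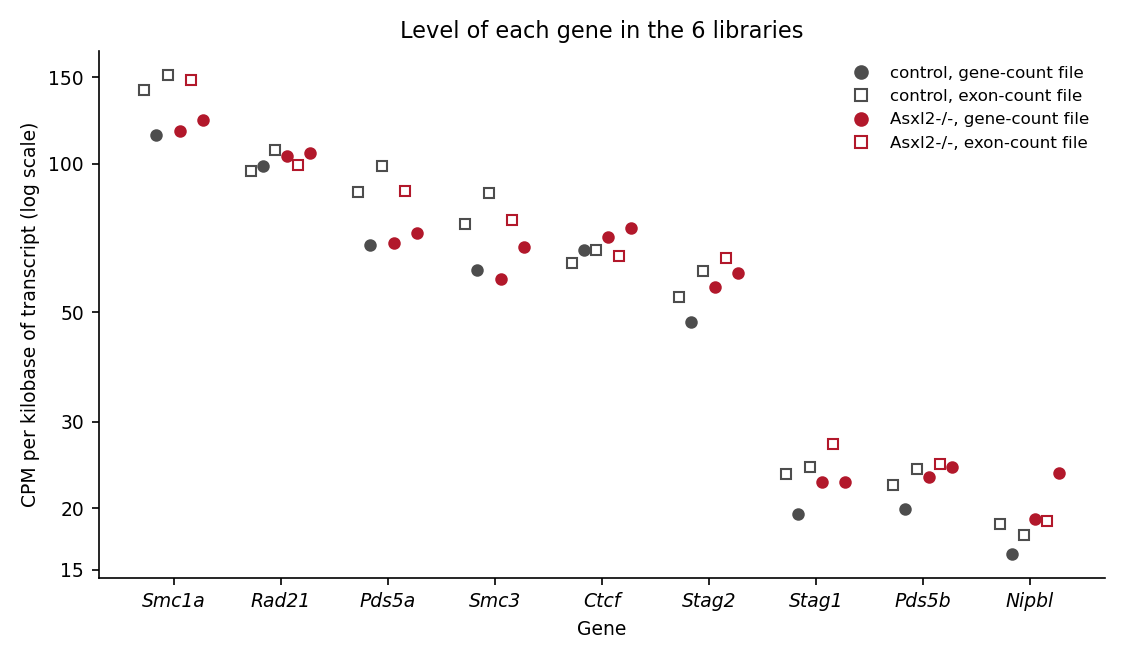
Level of each of the 9 genes (horizontal axis) in the 6 libraries as CPM per kilobase of transcript on a log scale (vertical axis), with control in grey, Asxl2-/- in red, gene-count files as filled circles and exon-count files as open squares. Smc1a is highest at 115 to 152, and Stag1, Pds5b and Nipbl form the lowest group at 16.2 to 27.0.

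Where a pair of paralogs fills the same place in the ring, their share within each library does not depend on scaling between libraries. Stag2 made up 71.2%, 70.4% and 72.6% of Stag1 plus Stag2 per kilobase in Asxl2-/- libraries 1 to 3, and the control libraries 1 to 3 gave 69.6%, 71.1% and 71.4%. The groups overlapped, at 71.4% ± 1.1 and 70.7% ± 0.96 (SD, n = 3 each), and the mean difference within kinds of file was 0.39 percentage points (exact permutation test within kinds of file, two-sided, p = 0.556). Pds5a made up 74.9%, 78.2% and 74.9% of Pds5a plus Pds5b in Asxl2-/- and 79.7%, 77.4% and 80.4% in control libraries. Its share was lower in each Asxl2-/- library than in every control of the same kind of file. The mean difference within kinds was -2.19 percentage points (76.0% ± 1.9 against 79.2% ± 1.6), and the exact permutation p of 0.111 is the smallest that the 9 possible arrangements allow. Pds5b has 7308 bases of exon and Pds5a 4146, and the part of the trend with transcript length in this share was not tested.

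Only the exon-count files show how counts were spread along a transcript, with Asxl2-/- replicate 2 against control replicates 1 and 3, so these profiles carry no test. For Smc1a, Rad21, Stag2, Pds5a, Pds5b and Ctcf, the largest shift in the share of any exon between knockout and controls (0.29 to 0.57 percentage points) was smaller than the largest between the controls (0.38 to 0.69). For the other 3 it was larger. The last exon of Stag1, 2010 bases long, held 13.8% of Stag1 counts in Asxl2-/- replicate 2 against 15.1% and 16.0% in the controls. Exon 10 of Nipbl, 1608 bases long, held 12.5% against 11.4% and 11.2%. In Smc3 the largest shift was 0.68 points, against 0.30 between the controls. Smaller shifts also ran over neighbouring exons. Exons 19 to 27 of Pds5b, 9 in a row, each had a lower share in Asxl2-/- replicate 2 than in either control, together 22.8% against 25.6% and 26.4%, and exons 9 to 17 of Stag1 each had a higher one (22.7% against 20.8% and 20.9%). Elsewhere in the 9 genes no such run exceeded 6 exons.

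A sum over exons can also change with the evenness of coverage. The log2 ratio of counts per base in the exons nearest the 3′ end to those nearest the 5′ end (the exons in order split into 3 groups of about equal number, the middle group left out) had a median of -0.26 in Asxl2-/- replicate 2 and of -0.24 and -0.28 in the controls over 4324 genes with at least 10 exons. Stag1 was at -0.37 in Asxl2-/- replicate 2 against -0.27 and -0.14, Pds5b at -0.59 against -0.43 and -0.50, and Smc3 at -0.66 against -0.56 and -0.47. In these 3 genes the knockout library was thus shifted towards the 5′ end beyond both controls, and in Rad21 towards the 3′ end (0.39 against 0.34 and 0.30). Stag2 lay just beyond both controls towards the 3′ end (-0.40 against -0.41 and -0.45). Nipbl did not lie beyond both controls in either direction (-0.095 against -0.044 and -0.095). When only the longest exon was used from the exon-count files, the log2 fold change of Stag1 was 0.09 instead of 0.20, and those of Stag2, Pds5b and Nipbl were 0.20, 0.17 and 0.19.

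**Figure D4:**
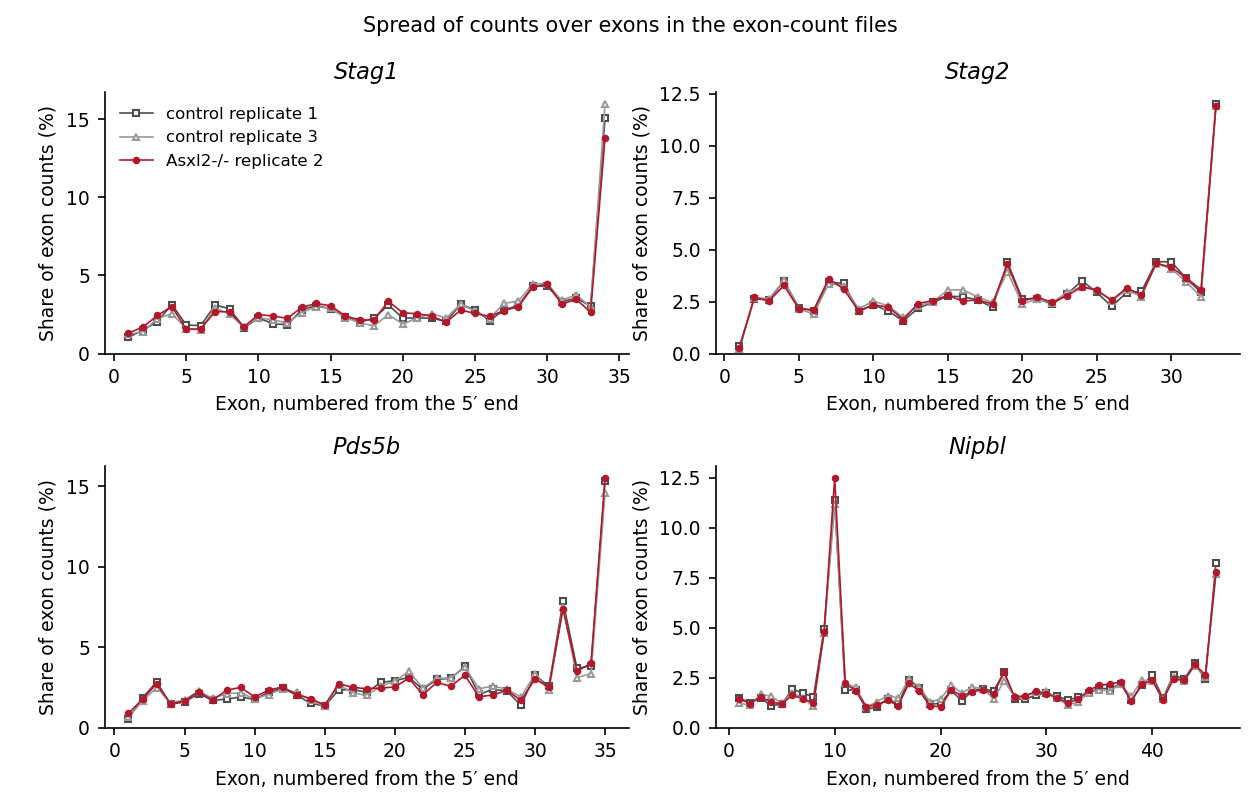
Share of the exon counts of Stag1, Stag2, Pds5b and Nipbl (vertical axes, %) that fell in each exon, numbered from the 5′ end (horizontal axes), in Asxl2-/- replicate 2 (red), control replicate 1 (dark grey) and control replicate 3 (light grey). The knockout differs from both controls most in the last exon of Stag1 (13.8% against 15.1% and 16.0%) and exon 10 of Nipbl (12.5% against 11.4% and 11.2%), and lies below both over exons 19 to 27 of Pds5b.

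The annotation lists several transcripts for Stag2 and Nipbl, and exons annotated differently between them were read in the same 3 libraries. Of counts in the alternative first exons of Stag2 transcripts NM_021465 (chrX:42150701-42150834) and NM_001077712 (chrX:42149412-42149685), the former held 75.8% (160 and 51 counts; Wilson 95% interval 69.6% to 81.1%) in Asxl2-/- replicate 2. It held 72.9% (66.5% to 78.4%) in control replicate 1 and 78.8% (72.3% to 84.1%) in control replicate 3, so the knockout lay between the controls. These intervals cover counting error only. A 111-base exon annotated in Stag2 transcript NM_001290713 (chrX:42266366-42266476), had 34.0% of the counts per base of its neighbours in Asxl2-/- replicate 2, against 36.2% and 33.8% in the controls. For Nipbl, a 2502-base last exon is annotated in NM_201232, and NM_027707 splits the same stretch into pieces of 189 and 1767 bases. The 189-base piece had 158 counts per 100 bases in Asxl2-/- replicate 2 against 146 and 139 in the controls, and the 1767-base piece 32.7 against 33.5 and 25.6. These counts were not scaled to library size or to the level of Nipbl. Both pieces lie within the 2502-base exon, so their counts do not tell the Nipbl transcripts apart. No difference between genotypes beyond that between the controls was seen in the use of the Stag2 exons.

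Beyond the 9 genes, 41 further genes of the cohesin pathway and of related complexes were listed by class. All were found, 38 were tested, and 0 passed the threshold, against 2.34% of all tested genes. At an unadjusted p below 0.05, 0 were higher and 1 was lower, against 27.7% of all tested genes in either direction. Their median log2 fold change was -0.04 (13 above and 25 below 0, range -0.37 to 0.47), against 0.06 for the 9 genes and 0.00052 over all tested genes.

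The gene with an unadjusted p below 0.05 was Plk1, a mitotic kinase that helps remove cohesin from chromosome arms. It was at 99.0 and 101 CPM in Asxl2-/- replicates 1 and 3 against 131 CPM in control replicate 2, and at 120 CPM in Asxl2-/- replicate 2 against 136 and 168 CPM in control replicates 1 and 3. All Asxl2-/- libraries were below the controls of their kind, with a log2 fold change of -0.37 ± 0.103 (SE; adjusted p = 0.0999 by edgeR). With DESeq2 it passed (adjusted p = 0.0208), as it did in edgeR without control replicate 1 (adjusted p = 0.0407). In the same class, 6 of the 7 genes for protection and cleavage of cohesin had values below 0, including Pttg1 (securin, the inhibitor of separase) at -0.26 (adjusted p = 0.192). Since Plk1 and Pttg1 are also genes of dividing cells, 12 proliferation genes are given beside them. Of the 12, 0 were called, and 10 had log2 fold changes below 0 (range -0.32 to 0.18, median -0.09). Against 27.7% of all tested genes, 2 of the 12 had an unadjusted p below 0.05. These were Cdc20, which activates the anaphase-promoting complex, at -0.32 (adjusted p = 0.119, but 0.0341 with DESeq2 and 0.0428 without control replicate 1), and the mitotic kinase Aurka at -0.27 (adjusted p = 0.159). In 4 of the 12 genes, these included, Asxl2-/- was below the controls without overlap in both kinds of file, as Plk1 and Pttg1 were. In 2 of the 12, Mki67 and Top2a, it was above the controls in that sense, against 25.4% of all tested genes. The share of all tested genes below the controls in that sense was not counted, so the count of 4 is not read as a result. The summed level of the list overlapped (3980 to 4250 CPM in Asxl2-/-, 3950 to 4500 CPM in control libraries), with its most abundant genes, Top2a and Mki67, at 0.11 and 0.18 (adjusted p = 0.454 and 0.265). These 4 genes were named after their values had been seen, and the part of proliferation in the values of Plk1 and Pttg1 was not tested.

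Loading and release were represented by Mau2, the partner of Nipbl, at a log2 fold change of -0.14 (adjusted p = 0.269), and Wapal, which opens the ring, at -0.22 (adjusted p = 0.378). Wapal ran from -0.04 without Asxl2-/- replicate 2 to -0.39 without control replicate 2. Nipbl at 0.22 and Mau2 at -0.14 thus had opposite signs without either passing. Among 8 genes for acetylation and establishment of cohesion the median was -0.03, and Esco2, which acetylates Smc3, and the X-linked Hdac8, which removes the acetyl groups, were at 0.24 and 0.21 (adjusted p = 0.197 and 0.24). Of 4 meiotic subunits, Smc1b and Rad21l had 0 to 2 counts in every library and were not tested, while Stag3 was at -0.12 (adjusted p = 0.803) and Rec8 at 0.47 (adjusted p = 0.308). Rec8 was at 25.7 and 30.6 CPM against 13.3 CPM in gene-count files but at 36.8 CPM, below the controls at 41.3 and 37.6 CPM, in exon-count files, so its direction differed with the kind of file.

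No gene of the complexes built on related ring proteins passed the threshold. Over 8 condensin genes the median was -0.02 and the range -0.11 to 0.10, with Smc4 at 0.10 (adjusted p = 0.611) and Ncaph2 at -0.11 (adjusted p = 0.415). The Smc5/6 complex, which acts in DNA repair, ranged from Ndnl2 at -0.27 (adjusted p = 0.184) to Smc5 at 0.31 (adjusted p = 0.19). Smc5 was at 0.53 in gene-count files alone and 0.07 in exon-count files alone, and ran from 0.07 without control replicate 2 to 0.55 without Asxl2-/- replicate 2. Of the paralog of Ctcf and 5 factors that share its sites, Ctcfl had at most 2 counts and was not tested, Maz was at -0.20 (adjusted p = 0.183) and Adnp at 0.08 (adjusted p = 0.621). Yy1, named above for its recognition letters, was at 137 CPM in both Asxl2-/- gene-count libraries against 135 CPM, and at 111 CPM against 114 and 123 CPM in exon-count files.

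**Figure D5:**
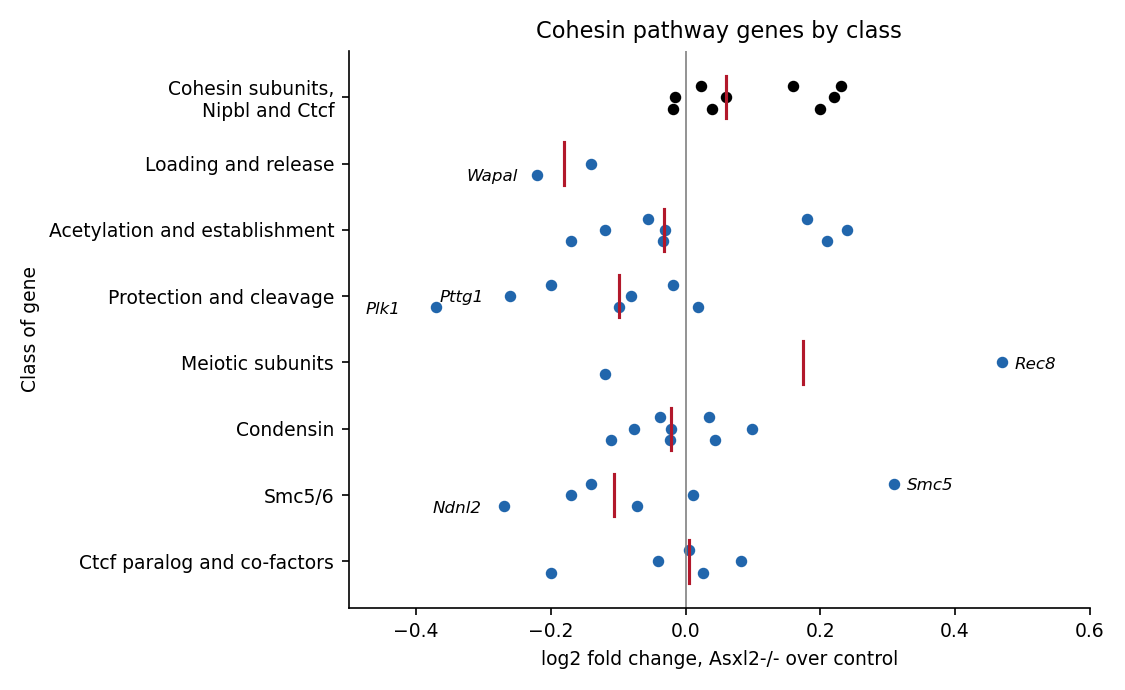
Log2 fold change between Asxl2-/- and control cells (horizontal axis) of the 9 genes (black) and of the 38 tested pathway genes (blue), by class (vertical axis), with the median of each class as a red line. The 9 genes span -0.02 to 0.23, and the pathway genes run from -0.37 (Plk1) to 0.47 (Rec8), with 0 past the threshold.

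The genes outside these lists whose pattern was most like the mean of the 9 were Ankrd32, Kif15, Nsun4, Uri1 and Snx19. Likeness was the root mean square difference of centred log2 CPM over the 6 libraries with the kind of file removed, and it was 0.0096 to 0.016 for these 5, against 0.023 to 0.11 for the 9 genes themselves and a median of 0.21 over all tested genes. The 5 were picked for their small distances and the 9 themselves form the mean, so this comparison is a description only. The log2 fold changes of the 5 were 0.08 to 0.10. The mean profile they matched ran from -0.09 in control replicate 2 to 0.12 in Asxl2-/- replicate 3.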

How the data were processed

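The deposited values were raw whole-number read counts per RefSeq transcript or exon on mm10, made by the authors from poly(A)-selected, unstranded libraries. The submitters' processing notes name STAR, featureCounts and DESeq2 without versions. Each symbol was represented by the transcript with the longest summed exon length, and exon counts were summed. Counts were tested with edgeR 4.0.16 in R 4.3.3 (TMM, filterByExpr, file kind plus group, 3 residual degrees of freedom, Benjamini-Hochberg over 14145 genes, threshold 0.05, two-sided), after the step was tested on simulated data. The study's own test, Cuffdiff, needs aligned reads and was not used. Log2 CPM used a prior count of 2 and had the fitted file kind removed, so its SDs are somewhat too small. Permutation tests used scipy 1.17.1. The closest libraries of a group differed beyond sampling noise (chi-square per degree of freedom of 20.3 or more). The genes and lists were chosen with earlier results of these data known. The pathway genes named were those past the threshold and up to 2 per class with the smallest p-values. Alternatives were DESeq2 1.42.0, limma-voom 3.58.1, other scalings, filters, transcripts and covariates, fits to gene-count or exon-count files only, and the omission of 1 library at a time. Corrections for GC content, alone and with a replicate block, for the 87.6% of tested genes with a value, were added after seeing the data. The sequences are RefSeq's.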

Additional observations from a re-analysis of the deposited data

How the results depend on the processing

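The limits are 3 libraries per group split over 2 kinds of file, a sex difference that coincides with genotype, and exon profiles with 1 Asxl2-/- library; each of the 9 genes had at least 3363 counts in every library. The number called among the 9 genes was 0 under each of 20 alternatives, with adjusted p-values no lower than 0.053. Signs near 0 were not stable. Smc1a turned to -0.014 with DESeq2, -0.0083 with median-ratio scaling, -0.0074 with the length trend removed, -0.072 without the file kind and -0.071 with the replicate block instead of it (range -0.011 to 0.065 with 1 library left out). Smc3 turned to 0.083 with library size only and 0.031 in gene-count files alone (-0.10 to 0.049). Rad21 turned to -0.03 with DESeq2, -0.025 with median-ratio scaling, -0.012 with the length trend removed and -0.025 in exon-count files alone (-0.026 to 0.077). Pds5a turned to 0.081 with library size only, 0.026 in gene-count files alone and 3.6e-06 with the GC trend removed and the replicate block (-0.076 to 0.044). Library size only moved the median of all genes by 0.098. Further reversals were Rec8 at -0.10 and Adnp at -0.069 in exon-count files, Stag3 at 0.31 in gene-count files, Asxl2 at -0.0085 with the length trend removed, and Kif15 at -0.013 without the file kind and -0.0092 with the block instead of it. With 1 library left out, Rec8 ran from -0.10 to 1.08, Stag3 from -0.56 to 0.33, Adnp from -0.071 to 0.24, the Stag2 share from -0.078 to 0.85 points and the Pds5a share from -2.49 to -1.90 points. The cause of these reversals was not tested.

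The count over all genes was 2263 with DESeq2 and 161 with library size only. It was 9 without control replicate 3, 16 without Asxl2-/- replicate 1, 96 without Asxl2-/- replicate 3, 124 without control replicate 2, 659 without Asxl2-/- replicate 2 and 1312 without control replicate 1. Of the 38 other pathway genes, 1 (Plk1) was called with DESeq2, and 0 to 1 with 1 library left out. The latter were Plk1 without control replicate 1 and Rec8 without Asxl2-/- replicate 2 (log2 fold change 1.08). Without Asxl2-/- replicate 2, only the gene-count files hold both genotypes. Of the 9 ranks by level per kilobase, 4 were kept in gene-count files alone. Whether replicate numbers pair the libraries could not be told. Deviations of same-numbered libraries correlated at 0.294, -0.008 and -0.003, and not every library correlated best with its own number. Same-numbered libraries were always of different kinds of file, and the kind of file had not been removed from these deviations. With the replicate block and file kind, 5179 genes were called (adjusted p by edgeR). That fit has more terms for the same 6 libraries, and so fewer residual degrees of freedom than the 3 of the main fit. Among the 5179 were 4 pathway genes, Plk1 (0.00127), Rec8 (0.000392), Smc5 (0.00654) and Esco2 (0.0449). The direction of Rec8 differed with the kind of file. The escape genes Eif2s3x (0.00553) and Kdm5c (0.0495), and Cdc20 (0.00502) and Aurka (0.0231), were also among the 5179. With the GC trend also removed, 4076 were called, with Plk1, Rec8, Smc5 and Maz as the 4 pathway genes. With the block instead of the file kind, 380 were called and Kdm6a was not (0.0581).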
